A study of Mus musculus with 4 samples.

Results

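The selectin genes Sele and Selp and the genes Esm1 and Apln were described across all 4 arrays of a series on cultured CT26 cells, a line from a mouse colon carcinoma. They are 4 of the 22180 genes that had a probe set annotated to a single gene symbol, and they were picked by name, with their low values after Senexin B already known, so those values are given as a description. Each of the 4 had 1 such probe set. One culture received DMSO, the solvent, for 24 h, and another 5 µM Senexin B, a small-molecule inhibitor of the Mediator kinases CDK8 and CDK19, for 24 h. A further culture carried pLKO.1, a lentiviral plasmid backbone used to express hairpin RNAs, and the last is labelled shCDK8. All came from one line background and were grown in the same medium with fetal bovine serum, and the labels do not say whether the shCDK8 line was a clone or a pool, nor which hairpin it held. Each group had 1 array, so no spread between replicates could be measured, no difference could be tested, and every difference below is between 2 arrays.

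Selectins are adhesion receptors that bind sialylated, fucosylated sugars on passing leukocytes and slow them along the vessel wall. E-selectin (Sele) is made by activated endothelium, where NF-kappaB drives its transcription, and P-selectin (Selp) is stored in platelets and endothelial cells and moved to the surface on stimulation. Esm1 encodes endocan, a secreted dermatan sulfate proteoglycan, and Apln encodes apelin, a peptide ligand of the receptor Aplnr. Both are known from the tip cells that lead new vessel sprouts, and some tumour cells also make them. Selectins on vessel walls are also known as docking sites for circulating colon cancer cells.

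The 250 bases before the RefSeq transcription start of each gene are shown because these 4 genes were all low on the same array. The sequences are those of RefSeq on GRCm38.p6, written 5′ to 3′ on the strand of the gene, and capitals mark matches to the AP-1, ATF, NF-kappaB, STAT and TATA patterns.
Sele, chr1:164047984-164048233, plus strand: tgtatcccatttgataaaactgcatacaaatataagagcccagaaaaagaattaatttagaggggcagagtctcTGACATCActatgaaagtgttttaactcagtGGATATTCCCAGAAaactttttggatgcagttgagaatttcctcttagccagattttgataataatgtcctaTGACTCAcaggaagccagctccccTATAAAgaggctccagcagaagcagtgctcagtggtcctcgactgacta
Selp, chr1:164115014-164115263, plus strand: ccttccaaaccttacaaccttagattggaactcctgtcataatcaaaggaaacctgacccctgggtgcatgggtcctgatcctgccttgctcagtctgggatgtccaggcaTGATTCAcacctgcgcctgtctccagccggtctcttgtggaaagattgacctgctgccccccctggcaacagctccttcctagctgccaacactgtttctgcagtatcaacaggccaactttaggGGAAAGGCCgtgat
Esm1, chr13:113209409-113209658, plus strand: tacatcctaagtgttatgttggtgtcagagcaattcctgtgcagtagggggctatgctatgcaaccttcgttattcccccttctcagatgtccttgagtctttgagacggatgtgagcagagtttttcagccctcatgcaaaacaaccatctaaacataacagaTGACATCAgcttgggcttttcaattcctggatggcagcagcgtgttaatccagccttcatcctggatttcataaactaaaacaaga
Apln, chrX:48034854-48035103, minus strand: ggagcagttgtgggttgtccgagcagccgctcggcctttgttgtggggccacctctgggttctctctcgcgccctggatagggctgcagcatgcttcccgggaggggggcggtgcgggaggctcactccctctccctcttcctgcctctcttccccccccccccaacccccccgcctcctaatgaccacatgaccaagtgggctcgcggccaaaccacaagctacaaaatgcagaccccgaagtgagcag

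The patterns were chosen with these promoters in view and were searched on both strands. TGACNTCA, the ATF or cAMP-response pattern, occurred in Sele and in Esm1, as TGACATCA in both, and in 7.49% of 32851 RefSeq windows of the same length. In Sele it lay 176 to 169 bases before the start, and in Esm1 86 to 79 bases before it. TGANTCA, the AP-1 pattern, occurred in Sele and Selp and in 6.75% of all windows. GGNNNTTCC, a loose NF-kappaB pattern, occurred in Sele as GGATATTCC and, on the opposite strand, in Selp, and in 15.7% of all windows. In Sele it overlapped the match to TTCNNNGAA, the STAT pattern, which occurred in 7.02% of windows and in none of the other 3 genes. TATAAA occurred in Sele alone of the 4, 49 to 44 bases before the start, and in 12.4% of all windows. The loose hypoxia-response pattern NCGTG, not capitalised, occurred in Selp and Esm1 and in 55.4% of all windows. The Apln window held no match to any of the 6 patterns. These matches describe letters in a window and were not set against any measure of factor binding.

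Across the whole series, the array medians over 41345 probe sets lay between 5.99 and 6.04, and any 2 arrays correlated across probe sets with a Pearson's r of 0.982 to 0.990. An expression limit of 5.98, the 40th percentile of all gene values, was set, and 14272 of the 22180 genes reached it on at least 1 array. These are called expressed, and counts of expressed list members are to be read beside that share. The hairpin line was checked through Cdk8, which stood at 10.79 in pLKO.1 and 9.07 in shCDK8. Leukocyte markers reached the limit in 1 of 7 measured genes and on all 4 arrays in 0, with Ptprc between 4.27 and 4.66. Of the 11 colon epithelium markers 6 reached the limit, on all 4 arrays, and Epcam, Krt19, Vil1, Lgals4 and Cdh17 did so on none. Those 5 epithelial genes were thus not detected by this limit in a line of colon carcinoma origin. Krt20, an intestinal keratin gene, stood at 8.72 in DMSO, 8.62 in Senexin B, 8.03 in pLKO.1 and 6.59 in shCDK8. It was the 1 expressed colon marker past 2-fold, at -1.44 in shCDK8 minus pLKO.1 and -2.13 in shCDK8 minus DMSO. In these comparisons 0.322% and 0.329% of expressed genes were at least 2-fold lower. The part of Krt20 in the values of the 4 genes was not tested.

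Sele was read first among the adhesion receptors. Its value was 10.18 in DMSO, 7.96 in Senexin B, 10.27 in pLKO.1 and 9.89 in shCDK8. The Senexin B array was the low one, and the other arrays lay within 0.39 of each other. Senexin B minus DMSO was -2.22, a 4.66-fold lower level, which was the second lowest difference among the 14272 expressed genes. Against the pLKO.1 array it was -2.31. Whole cultures were measured, so fewer cells with the transcript and less transcript per cell cannot be told apart. In shCDK8 the difference from pLKO.1 was -0.39 and from DMSO -0.29.

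Selp stood at 10.01 in DMSO, 8.51 in Senexin B, 10.34 in pLKO.1 and 10.52 in shCDK8. Senexin B was again the lowest array, while shCDK8 was the highest. Senexin B minus DMSO was -1.49, a 2.81-fold lower level, and against pLKO.1 it was -1.82. In shCDK8 the difference from pLKO.1 was 0.18. The arrays without compound differed as well, with pLKO.1 0.33 above DMSO, the largest such difference of the 4 genes.

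Esm1 had the widest range of the 4 genes, 3.23 on the log2 scale. It stood at 9.27 in DMSO, 7.17 in Senexin B, 9.44 in pLKO.1 and 10.40 in shCDK8. The Senexin B and shCDK8 arrays thus lay on opposite sides of both controls. Senexin B minus DMSO was -2.10, a 4.30-fold lower level. In shCDK8 the difference was 0.97 from pLKO.1, 1.95-fold and so just short of the 2-fold threshold, and 1.13 from DMSO, 2.19-fold.

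Apln was the single one of the 4 that was lower than both controls in shCDK8 by over 1.5-fold as well as in Senexin B. Its value was 8.78 in DMSO, 7.10 in Senexin B, 8.96 in pLKO.1 and 7.95 in shCDK8. Senexin B minus DMSO was -1.69, a 3.22-fold lower level. In shCDK8 the difference was -1.01 from pLKO.1, 2.02-fold lower and just past the threshold, and -0.83 from DMSO, 1.78-fold lower and short of it.

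**Figure D1:**
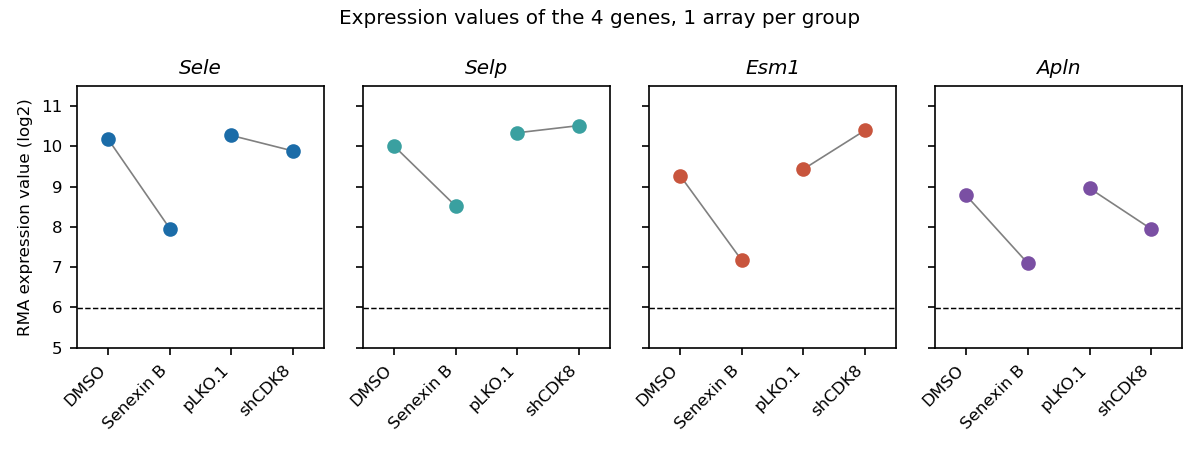
RMA expression values (log2, vertical axis) of Sele, Selp, Esm1 and Apln on the 4 arrays; each point is 1 array, grey lines join the arrays of a comparison and the dashed line is the expression limit of 5.98. Senexin B is the lowest array for each gene, and shCDK8 is the highest for Esm1 (10.40) and lies between the controls and Senexin B for Apln (7.95).

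All 4 genes lay above the expression limit on all 4 arrays. The smallest margin was that of Apln with Senexin B, 1.12 above the limit, so raising low values to the limit left each difference as it was. With Senexin B, 4 of 4 were at least 2-fold lower than in DMSO, where 0.252% of the expressed genes were, and this is the contrast by which the genes were picked. Their median difference was -1.90, beside -0.028 over all expressed genes. Against the pLKO.1 array, which shares the Senexin B array with that comparison, 4 of 4 were also at least 2-fold lower (0.301% of expressed genes), with differences from -2.31 to -1.82.

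In shCDK8 minus pLKO.1, which shares no array with Senexin B minus DMSO, the 4 genes went apart. Apln was at least 2-fold lower, as were 0.322% of the expressed genes, and 0 of 4 were at least 2-fold higher (0.196%). Their median was -0.10 and their range -1.01 to 0.97, beside a median of 0.0038 over all expressed genes. Against DMSO in place of pLKO.1, 0 of 4 were at least 2-fold lower (0.329%) and Esm1 was at least 2-fold higher (0.266%). Between the controls all 4 genes were above 0, as 44.3% of expressed genes were, at 0.091 to 0.33 for pLKO.1 minus DMSO, where the SD over all expressed genes was 0.194.

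**Figure D2:**
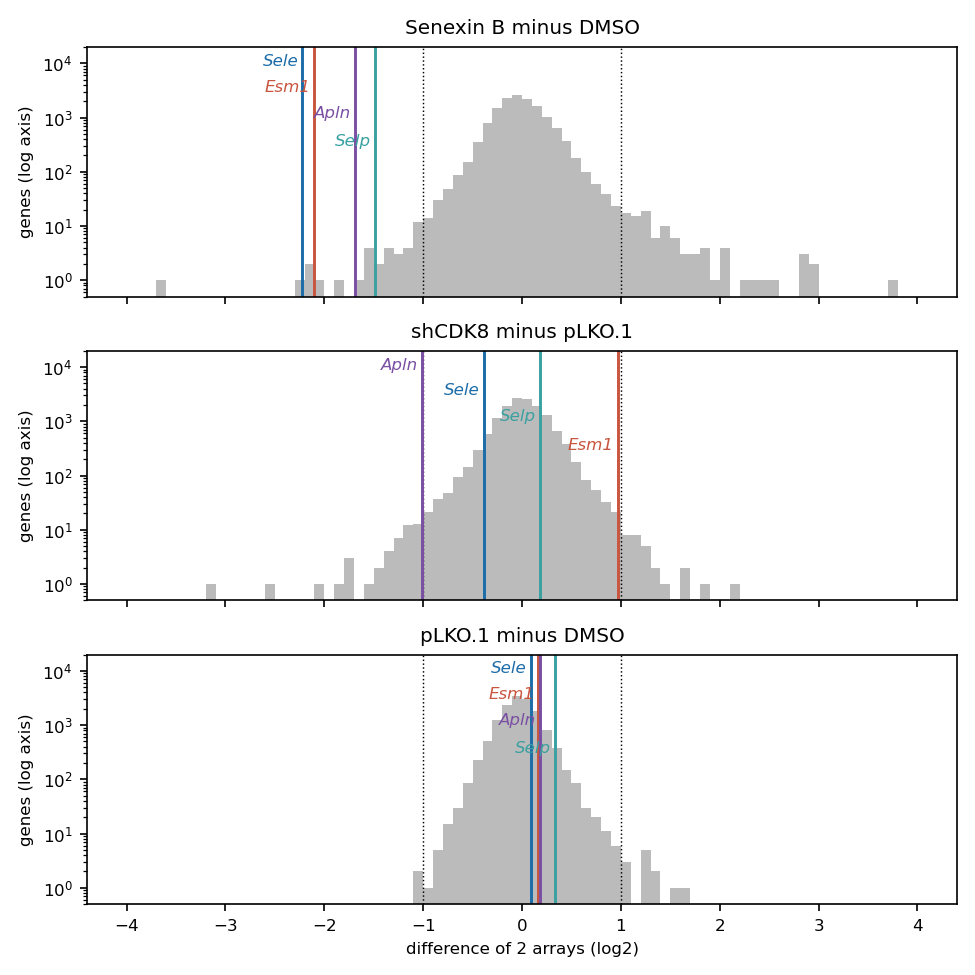
Numbers of expressed genes (vertical log axis) by the log2 difference of 2 arrays (horizontal axis, bins of 0.1) for each comparison, with the 4 genes as coloured lines and 2-fold as dotted lines. The 4 lie between -2.22 and -1.49 with Senexin B, between -1.01 and 0.97 in shCDK8, and between 0.091 and 0.33 for pLKO.1 minus DMSO.

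Sele and Selp lie close together in the RefSeq gene order. Both were picked with their low Senexin B values known, so smaller differences in the measured protein-coding genes around them are a description. BC055324 and Mettl18, on the Sele side, were at -0.30 and -0.27. F5, which encodes coagulation factor V and follows Selp in that order, was under the limit on all 4 arrays, and Slc19a2, a thiamine transporter gene beyond it, was at -0.49. Slc19a2 was at 0.53 in shCDK8 minus pLKO.1, the largest value of this stretch.

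**Figure D3:**
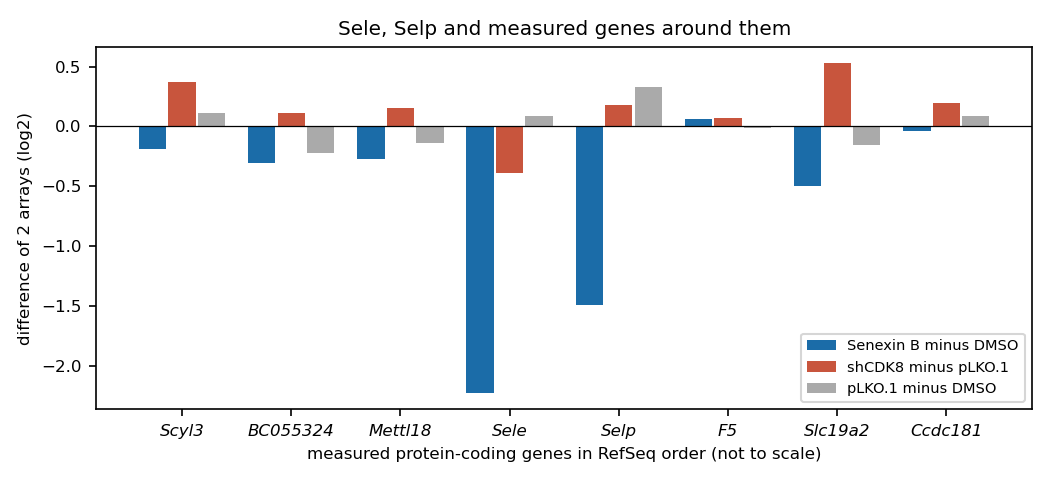
Log2 difference of 2 arrays (vertical axis) for Sele, Selp and 6 measured protein-coding genes around them in RefSeq order (horizontal axis, not to scale), with 1 bar per comparison. With Senexin B minus DMSO, Sele (-2.22) and Selp (-1.49) are the low bars, and the next is Slc19a2 (-0.49).

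Around Esm1, the granzyme gene Gzma and Cspg4b were under the limit on all arrays. Gzmk, another granzyme gene, was at 0.28 with Senexin B minus DMSO and reached the limit only on the Senexin B array, and Snx18, a sorting nexin gene, was at -0.10. Around Apln, Ocrl, a phosphoinositide phosphatase gene, was at -0.11 and Sash3 at 0.04, and Smarca1 and Xpnpep2 were under the limit on all arrays.

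Of 10 listed selectin ligand proteins 9 had genes that reached the expression limit, beside 14272 of all 22180 genes. With Senexin B minus DMSO 5 of the 9 were below 0 (55.1% of expressed genes) and 4 above, with a median of -0.10. In that comparison 0 of 9 were 2-fold apart (0.939% of expressed genes). Podxl, podocalyxin, was at -0.53, Lgals3bp at 0.52 and the mucosal addressin Madcam1 at 0.40. Lgals3bp was 0.52 higher in pLKO.1 than in DMSO too. Selplg, the main P-selectin ligand of leukocytes, lay near the limit, between 5.82 and 6.15, and Cd44, also an E-selectin ligand, lay between 8.43 and 8.79. Listed ligand genes with higher values were Cd34 (12.53 to 12.76), Lgals3bp (10.42 to 10.94) and Glg1 (10.18 to 10.63). The shCDK8 minus pLKO.1 difference was below 0 in 7 of the 9 (49.1% of expressed genes), with a median of -0.19, and 0 were 2-fold apart (0.518% of expressed genes).

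The enzymes that build and sulfate these ligands were expressed in 13 of 15 cases. Of these 0 were 2-fold apart with Senexin B minus DMSO (0.939% of expressed genes) or in shCDK8 minus pLKO.1 (0.518%). With Senexin B minus DMSO the median was -0.047, with 9 below 0 (55.1% of expressed genes) and 4 above. St3gal4, a sialyltransferase for selectin ligands, was at -0.55, C1galt1c1, the chaperone of core 1 O-glycan synthesis, at -0.41, and the fucosyltransferase gene Fut9 at 0.39. Fut9 reached the limit only on the Senexin B array (6.14), so it counts as expressed, and among the 4 above 0, through that array alone. Fut7, the leukocyte fucosyltransferase gene, was under the limit on all arrays. The shCDK8 minus pLKO.1 median was -0.0055, with the core 2 enzyme gene Gcnt1 at -0.81 and C1galt1c1 at -0.44.

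Other adhesion receptors of vessel walls and leukocytes were read beside Sele and Selp, which were picked with their low Senexin B values known. Of 8 expressed members 0 were 2-fold apart in either comparison, beside 0.939% of expressed genes with Senexin B and 0.518% in shCDK8. The medians were -0.11 with Senexin B and 0.036 in shCDK8, each against its own control. Vcam1, an NF-kappaB target in activated endothelium, was at -0.18 and 0.13 in these comparisons, and Icam1 at 0.23 and -0.09. The larger values were those of Pvr (-0.50) and Madcam1 (0.40) with Senexin B, and of Madcam1 (0.56) and Alcam (-0.45) in shCDK8.

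Of the apelin pathway Apln and the protease gene Furin were expressed. Furin was at -0.24 with Senexin B minus DMSO and -0.12 in shCDK8 minus pLKO.1. The receptor gene Aplnr (4.95 to 5.50), the second receptor ligand gene Apela (4.49 to 4.91), the convertase gene Pcsk1 (4.91 to 5.25) and the peptidase gene Mme (4.94 to 5.26) lay under the limit on all arrays.

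Vascular endothelial growth factors and their receptors went both ways. Vegfa, the main endothelial growth factor of the family, was at 0.86 for Senexin B minus DMSO, and Vegfd, a lymphatic factor, at 0.78. Vegfb was at 0.20 and Vegfc at -0.12, and Pgf was under the limit on all arrays. Among receptors Nrp1 was at -0.63, Flt1 at -0.28, Nrp2 at 0.32, Kdr at 0.15 and Flt4 at 0.03. The median of the 9 expressed members was 0.15, and 0 were 2-fold apart, beside 0.939% of expressed genes.

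In shCDK8 minus pLKO.1 Flt1, which encodes VEGF receptor 1, was 1.07 higher and the single one of 9 members 2-fold apart, beside 0.518% of expressed genes. It stood at 7.85 in DMSO, 7.58 in Senexin B, 7.73 in pLKO.1 and 8.79 in shCDK8, so the shCDK8 array was the high one. Against DMSO it was 0.94 higher, short of 2-fold. Nrp1 was at -0.45, Vegfa at 0.34, Vegfc at 0.28, Flt4 at 0.26, Nrp2 at -0.20, Kdr at -0.15, Vegfd at -0.08 and Vegfb at -0.02, with a list median of -0.016.

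Esm1 and Apln are also on the list of endothelial tip cell genes. The 7 other expressed members of that list lay between -0.05 and 0.33 with Senexin B minus DMSO and between -0.28 and 0.26 in shCDK8 minus pLKO.1. In these comparisons 0 of 7 were 2-fold apart, beside 0.939% and 0.518% of expressed genes. With Senexin B, Unc5b, a netrin receptor gene, was at 0.33, Plvap at 0.19 and Igfbp3 at 0.17. Igfbp3 reached the limit only on the Senexin B array (6.13), so it is among the 7 through that array alone. Angpt2, Dll4 and Nid2 were under the limit on all arrays.

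The endothelial marker list was read as a check on endothelial RNA in the cultures. Of 16 markers 9 reached the limit on some array, beside 14272 of all 22180 genes, and 4 reached it on all. The mean of the 16 was 5.97 in DMSO, 5.98 in Senexin B, 5.85 in pLKO.1 and 5.85 in shCDK8. The 4 were Egfl7 (6.84 to 7.04), Ramp2 (6.66 to 7.08), Tie1 (6.39 to 6.51) and Sox17 (6.25 to 6.59). Pecam1 lay between 5.88 and 6.14 and Cdh5 between 5.27 and 6.15. Tek, Emcn, Erg, Cldn5, Esam, Robo4 and Sox18 were under the limit on all arrays. With Senexin B minus DMSO the 9 expressed markers lay between -0.23 and 0.27, and in shCDK8 minus pLKO.1 between -0.29 and 0.21. Of 7 measured platelet markers 4 reached the limit, each within 0.084 of 0 with Senexin B minus DMSO. These were Itga2b, Gp9, Gp5 and Treml1, which reached it on all 4 arrays, while Pf4 lay between 4.64 and 4.92.

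Other angiogenic factors had medians of 0.11 with Senexin B minus DMSO and 0.16 in shCDK8 minus pLKO.1 over 7 expressed members. In these comparisons 0 of 7 were 2-fold apart, beside 0.939% and 0.518% of expressed genes. The matricellular genes Ccn1 and Ccn2 were at -0.41 and 0.15 with Senexin B, and at 0.24 and -0.74 in shCDK8. Fgf1 was at 0.34 with Senexin B, and the growth factor gene Pdgfa at 0.39 in shCDK8. The shCDK8 median became -0.12 against the DMSO array.

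For 8 expressed inhibitors of angiogenesis the median of Senexin B minus DMSO was 0.32, with 5 above 0 and 3 below it, where 55.1% of expressed genes lay. The 3 below were Adamts1 (-0.31), Serpinf1 (-0.04) and Sparc (-0.03). Timp3, a metalloproteinase inhibitor that also blocks VEGF receptor 2, stood at 9.09 in DMSO, 10.86 in Senexin B, 8.91 in pLKO.1 and 9.90 in shCDK8. It was the single member 2-fold apart with Senexin B minus DMSO, beside 0.939% of expressed genes. The thrombospondin genes Thbs1 and Thbs2 were at 0.74 and 0.75 and Col18a1, the source of endostatin, at 0.45. Col18a1 was 0.54 higher in pLKO.1 than in DMSO, and against pLKO.1 the list median was 0.058. For Senexin B minus pLKO.1 Timp3 was at 1.95, Thbs2 at 1.03, just past 2-fold, and Thbs1 at 0.82. Adamts1 (-0.51), Col18a1 (-0.09) and Vash2 (-0.06) were below 0 there. The median of shCDK8 minus pLKO.1 was 0.060, with Timp3 at 0.99 and 0 of 8 at 2-fold, beside 0.518% of expressed genes.

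Hypoxia targets, a group to which Apln is also known to belong, had a median of 0.17 over 13 expressed genes with Senexin B minus DMSO, with 8 above and 5 below 0, beside 55.1% of expressed genes below 0. Vegfa, Egln3 (0.57) and Car9 (0.52) lay highest, and 0 of 13 were 2-fold apart, beside 0.939% of expressed genes. Car9 was under the limit in DMSO (5.83) and pLKO.1 (5.95) and reached it only on the other arrays. Against pLKO.1 the median was -0.051. In shCDK8 minus pLKO.1 the prolyl hydroxylase gene Egln3 was at -2.07 and the lactate transporter gene Slc16a3 at -1.39, so 2 of 13 were at least 2-fold lower, beside 0.322% of expressed genes. Ndrg1 was at -0.75, and the median was -0.0072. Slc16a3 was 0.76 higher in pLKO.1 than in DMSO, and at -0.64 in shCDK8 minus DMSO.

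**Figure D4:**
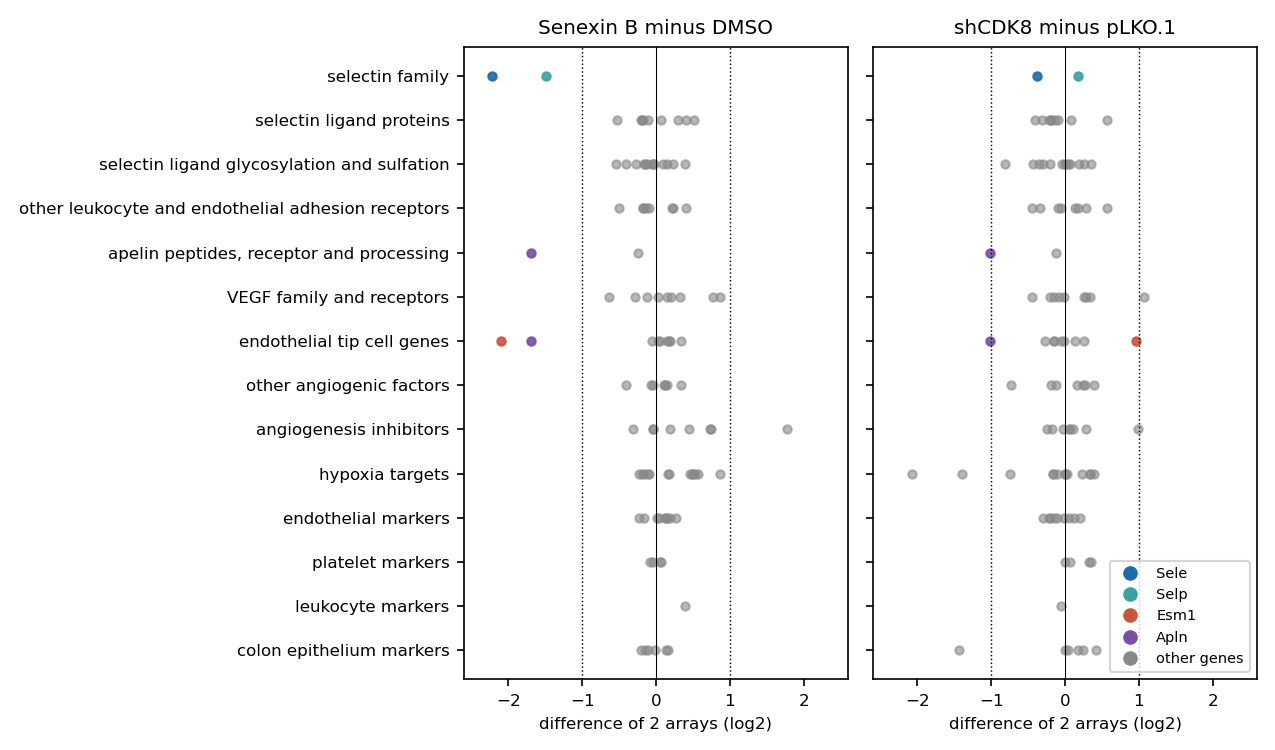
Log2 difference of 2 arrays (horizontal axis) for each expressed gene of the 14 lists (rows), with 1 point per gene, some genes on several lists, and 2-fold as dotted lines. With Senexin B minus DMSO, Sele, Selp, Esm1 and Apln are the points below the lower dotted line, and Timp3 (1.77) is the point above the upper one.

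Genes with the most similar pattern were sought by the Euclidean distance over the 4 log2 values, each centred on its own mean, among named protein-coding genes that were expressed. With 4 arrays, and with these genes low on the same array, this is a description. Nearest to Sele were Egr1, an immediate-early transcription factor gene, at a distance of 0.64, Btc, the gene of the EGF receptor ligand betacellulin, at 0.65, and Selp at 0.67. Nearest to Selp were Btc at 0.24, Sh2d1b1 at 0.34 and Egr1 at 0.44. Btc stood at 7.75 in DMSO, 6.37 in Senexin B, 8.06 in pLKO.1 and 8.04 in shCDK8. Egr1 stood at 8.53, 7.18, 8.87 and 8.60 on the same arrays. Both were thus at least 2-fold lower on the Senexin B array than on either control array, and their shCDK8 values lay within 0.27 of pLKO.1.

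Nearest to Esm1 were Sh2d1b1 at 0.61, the aspartoacylase gene Aspa at 0.70 and Rasgrp3, a gene for a guanine nucleotide exchange factor of Ras proteins, at 0.76. Sh2d1b1 was under the limit on the DMSO and Senexin B arrays and Aspa on the Senexin B array. Rasgrp3 stood at 7.33 in DMSO, 6.18 in Senexin B, 7.75 in pLKO.1 and 8.54 in shCDK8, the same order of arrays as for Esm1. Nearest to Apln were the stromelysin gene Mmp10 at 0.44, the RNA polymerase subunit gene Polr2l at 0.47 and Tenm3 at 0.61. Mmp10 stood at 9.10 in DMSO, 6.94 in Senexin B, 8.88 in pLKO.1 and 7.70 in shCDK8. Polr2l reached the limit on neither the Senexin B nor the shCDK8 array. Among the 4 genes themselves the distance was smallest between Sele and Selp, 0.67, and largest between Esm1 and Apln, 1.85.

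**Figure D5:**
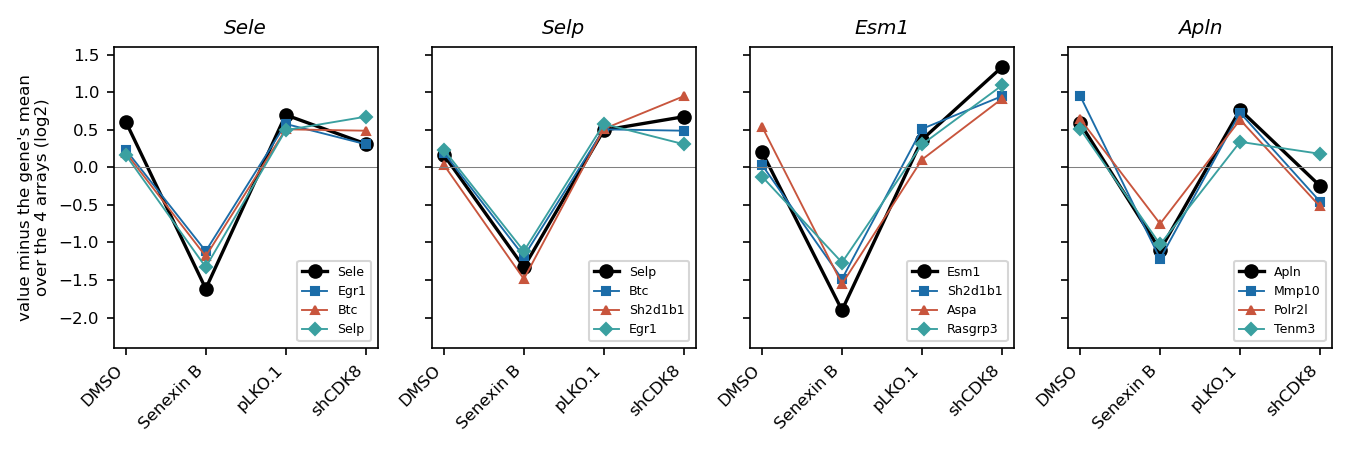
Log2 value minus the mean of the gene over the 4 arrays (vertical axis) for each of the 4 genes (black) and the 3 genes nearest to it (coloured); each point is 1 array and lines only link the points of a gene. The Senexin B array is the lowest point of each of the black lines, and shCDK8 is the highest point for Selp and Esm1.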

How the data were processed

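RNA from 4 CT26 cultures was measured on 1 Affymetrix Mouse Gene 2.0 ST array each, per the series design text. The deposited values are log2 expression values, and per the submitters' processing notes the authors used RMA and Affymetrix Expression Console, with versions and settings that were not given in the sources used here. The RMA method subtracts background, scales the arrays towards one distribution and narrows differences near background. The deposited columns had close but not identical quartiles. The number of arrays limits the precision.

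Of 41345 probe sets 23521 had 1 gene symbol, 1814 several and 16010 none in the platform annotation, and 23328 of the first matched RefSeq GRCm38.p6. For genes with several, the probe set with the highest mean was kept. Differences, counts and medians were computed with pandas 2.3.3 and tested on simulated data. Alternatives were a repeated quantile normalization, a lowess trend removed (span 0.3), the mean of probe sets, other limits and thresholds, and the other control. The genes and lists were chosen with earlier results of these data known. Genes named are the 4 genes, every measured selectin, apelin and VEGF list member, otherwise members 2-fold apart or up to 3 with the largest differences, 2 measured protein-coding neighbours on each side and the 3 nearest profiles. Named outside that rule, after their values were seen, were Selplg, Cd44, Cd34, Glg1, Fut7, Vcam1, Icam1, Thbs1, Vash2 and Col18a1. So were the markers given by name or level and the genes under the limit that are given by level.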

Additional observations from a re-analysis of the deposited data

Results flagged for a closer look

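Esm1 was lower with Senexin B than with DMSO (-2.10) and higher in shCDK8 than in pLKO.1 (0.97), so that the second difference exceeded the first by 3.07 on the log2 scale. Selp was likewise lower with Senexin B (-1.49) and higher in shCDK8 (0.18), a gap of 1.67, although the second value is smaller than the 0.33 between its control arrays. They are given here because the inhibitor and the hairpin line moved opposite ways. With 1 array per group the difference was not tested in either gene.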

How the results depend on the processing

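For the 4 genes, 34 of 40 alternative values lay within 0.1 of the deposited log2 difference, including every value under a repeated quantile normalization and a removed trend. The 34 also include 8 values under the mean of probe sets and 8 raised to the limit. Those 2 settings could not change a value, because each gene had 1 probe set and lay above the limit on all 4 arrays. The 6 values that moved came from the other control array as reference: Selp gave -1.82 with Senexin B and 0.51 in shCDK8, Esm1 -2.27 and 1.13, and Apln -1.87 and -0.83. Esm1 thereby passed 2-fold in shCDK8 and Apln no longer did. At 2-fold 98 expressed genes were higher and 36 lower with Senexin B, and 28 and 46 in shCDK8. With Senexin B they numbered 336 higher and 235 lower at 1.5-fold and 26 and 7 at 3-fold. In shCDK8 they numbered 238 and 264 at 1.5-fold and 4 and 7 at 3-fold, and 52 were higher with no expression limit. Of 70 alternative values of list medians 58 lay within 0.1 of the deposited one, and only the 12 that moved further are given next. Of the list medians, those against the other control became -0.23 with Senexin B and 0.086 in shCDK8 for selectin ligand proteins, 0.0053 with Senexin B for other adhesion receptors, -0.12 in shCDK8 for other angiogenic factors, 0.058 with Senexin B and 0.19 in shCDK8 for angiogenesis inhibitors, -0.051 with Senexin B for hypoxia targets and 0.14 with Senexin B for colon epithelium markers. With no expression limit they became -0.0066 for other adhesion receptors and 0.30 for hypoxia targets with Senexin B, and 0.0031 for endothelial and 0.0040 for colon epithelium markers in shCDK8. The cause was not tested. No paired analysis was possible because each group had 1 array. Signal over background was not used here, so values near the expression limit of 5.98 are uncertain.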
